A study of Mus musculus with 2 samples.

Results

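The genes described here encode the T cell receptor complex, its coreceptors and the kinases next to them, together with Foxp3. The 10 members were taken by symbol from the deposited expression table: Cd3d, Cd3e, Cd3g and Cd247 (the signalling chains), Cd4, Cd8a and Cd8b1 (the coreceptors), Lck and Zap70 (the tyrosine kinases) and Foxp3 (the transcription factor of regulatory T cells). All 10 were found among the 18722 loci of the table. The tissue was testis of male C57BL/6J mice aged 16 weeks. The shDmrt1 library came from testis with a short hairpin RNA against Dmrt1 and is labelled Dmrt1 knockdown, and the shControl library came from testis with a control hairpin and is labelled WT. There was 1 library per group, and how the hairpins were delivered, which cells they reached and the number of animals behind each library are not stated by the labels. With 1 library per group there was no replicate check and no test between groups, so each value below compares these libraries and not the conditions.

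T cells recognise peptides on MHC molecules through an antigen receptor whose own chains carry almost no signalling tail. The signal is passed by the associated CD3 gamma, delta and epsilon chains and the zeta chain (Cd247), whose tails carry tyrosine motifs called ITAMs. Lck, which CD4 or CD8 can bring to the receptor, phosphorylates the ITAMs, and Zap70 binds the phosphorylated ITAMs and passes the signal on to adaptor proteins. CD4 binds MHC class II and marks helper and regulatory T cells, and CD8, a dimer of alpha chains or of an alpha and a beta chain, binds MHC class I and marks cytotoxic T cells. The testis is known as a site of immune privilege in which T cells are normally sparse. Immune homeostasis of this organ is the subject given in the title of the series, and these genes bear on it.

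The CD3 genes lie side by side on mouse chromosome 9, where Cd3g, Cd3d and Cd3e span 40.1 kb, and the start sites of Cd3g and Cd3d face away from each other across a gap of 1.35 kb. Cd8b1 and Cd8a lie within 56.4 kb of chromosome 6. The 250 bases before the start site, taken from RefSeq on GRCm38.p6, are shown for these 3 CD3 genes, since they are neighbours whose transcripts were all higher in the shDmrt1 library, and for Cd8a, the member with the highest ratio. Each line reads 5′ to 3′ on the strand of the gene, and capitals mark E-box matches, written CANNTG.
Cd3g, chr9:44980432-44980681, minus strand: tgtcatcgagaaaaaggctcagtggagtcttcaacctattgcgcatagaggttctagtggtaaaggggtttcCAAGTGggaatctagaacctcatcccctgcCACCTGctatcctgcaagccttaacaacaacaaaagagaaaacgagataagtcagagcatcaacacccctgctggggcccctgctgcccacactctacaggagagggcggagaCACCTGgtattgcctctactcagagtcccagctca
Cd3d, chr9:44981536-44981785, plus strand: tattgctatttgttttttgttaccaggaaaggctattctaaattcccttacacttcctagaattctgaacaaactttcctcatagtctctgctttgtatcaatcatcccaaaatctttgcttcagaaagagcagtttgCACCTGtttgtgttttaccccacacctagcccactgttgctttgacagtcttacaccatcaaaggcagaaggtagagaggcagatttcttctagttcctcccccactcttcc
Cd3e, chr9:45009612-45009861, minus strand: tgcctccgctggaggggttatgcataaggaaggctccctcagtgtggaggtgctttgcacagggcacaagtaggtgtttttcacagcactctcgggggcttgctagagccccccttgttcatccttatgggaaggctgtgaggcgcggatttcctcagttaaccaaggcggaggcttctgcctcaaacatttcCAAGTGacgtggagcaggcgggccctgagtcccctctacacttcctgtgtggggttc
Cd8a, chr6:71373177-71373426, plus strand: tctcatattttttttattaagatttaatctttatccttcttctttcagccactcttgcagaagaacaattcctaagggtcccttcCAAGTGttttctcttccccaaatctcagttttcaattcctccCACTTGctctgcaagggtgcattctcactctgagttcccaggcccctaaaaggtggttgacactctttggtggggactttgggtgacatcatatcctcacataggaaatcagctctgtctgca

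Of the 10 members, 8 had a window in the RefSeq table, with 12 windows in all because Zap70, Lck and Foxp3 have several start sites; Cd4 and Cd8b1 had none. On both strands, CANNTG was found in 11 of the 12 windows, against 66.2% of 32851 windows of the same length before mouse genes. The core of ETS sites, GGAA, was also found in 11 of 12, against 93.5% of all windows. The RUNX core TGTGGT was found in 2 of 12, once each in Zap70 and Lck, against 14.1%, and TATAAA in 1, 32 bases before a Foxp3 start, against 12.4%. In Cd3g, Cd3e and Cd8a a match to CANNTG overlapped a match to GGAA. These matches describe letters and were not tied to any measured binding.

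Sequencing depth was 24594371 counts in the shDmrt1 library and 17846426 in the shControl library. Counts were scaled with TMM factors of 0.858 and 1.17 for the shDmrt1 and shControl libraries, and scaled CPM below means CPM relative to these scaled totals. Each log2 ratio is of shDmrt1 over shControl scaled counts with a prior count of 0.5, and its 95% interval (Clopper-Pearson) covers counting error only. A gene is called higher or lower where this whole interval lies beyond 2-fold. The target itself, Dmrt1, had 39 counts in the shDmrt1 library, against 852 in the shControl library. Testis markers were detected in the shControl library and called lower in the shDmrt1 library for 9 of 9 Sertoli genes, 7 of 7 Leydig genes and 10 of 10 germ cell genes, against 20.8% of all loci with at least 10 counts over both libraries. The germ cell marker Acrv1 was at 0 in the shDmrt1 library, with 15 counts in the shControl library. Germ cell genes were scarce in both, at 3.66 CPM of the library total in shDmrt1 and 148 CPM in shControl, summed over the 10.

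All 10 members were called higher in the shDmrt1 library, which compares with 17.4% of 16286 loci with at least 10 counts over both libraries. Their log2 ratios ran between 2.00 for Cd4 and 3.79 for Cd8a with a median of 3.08, beside a median of -0.03 over all those loci. Together they held 560 CPM of the shDmrt1 and 96.5 CPM of the shControl library total. All 10 passed the limit of 10 counts, and the lowest shControl count was 37, for Foxp3. In RNA of a mixed tissue, more cells of a type, more RNA per cell and less RNA from other cells cannot be told apart. CPM is a share of each library. Leydig markers summed to 240 CPM in the shDmrt1 and 23375.5 CPM in the shControl library, and Sertoli markers to 575 and 6716 CPM. The part of these losses in the member ratios was not tested. Scaled by library totals, each log2 ratio was lower by 0.44, and all 10 members stayed beyond 2-fold over their whole interval, as did 12.5% of the loci. Beyond 4-fold over the whole interval lay 9 of the 10 members and 8.06% of the loci. The authors' deposited comparison gives the members log2 fold changes between 1.99 and 3.77. It was made from these same libraries, so it is no separate check.

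**Figure D1:**
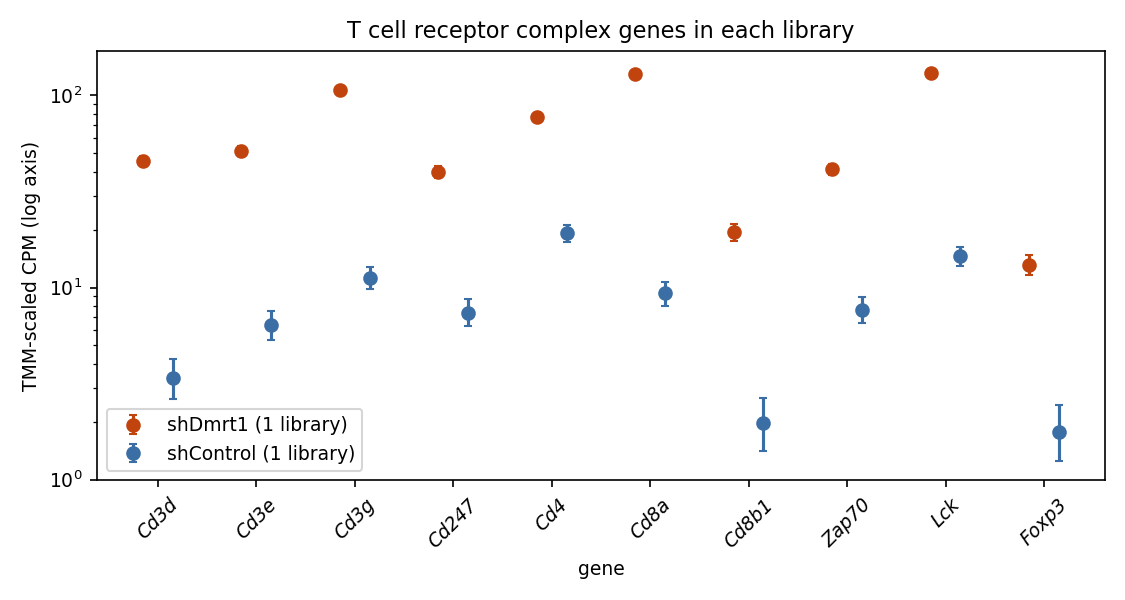
TMM-scaled CPM of each gene on a log axis in the shDmrt1 library (left point) and the shControl library (right point), 1 library per group, with bars for the exact 95% Poisson interval of the count. Every gene is higher in the shDmrt1 library, and the gap is narrowest for Cd4, at 76.8 against 19.1 scaled CPM.

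Among the CD3 chains, Cd3d (ENSMUSG00000032094, chromosome 9, 44981786 to 44987339), the delta chain, had 962 counts in the shDmrt1 library, against 70 in the shControl library, or 45.6 and 3.36 scaled CPM. This was 13.5-fold higher in the shDmrt1 library, with an interval of 10.6 to 17.5. Cd3g (ENSMUSG00000002033, chromosome 9, 44969572 to 44980431), the gamma chain, had 2246 and 234 counts, or 106 and 11.2 scaled CPM, in the shDmrt1 and shControl libraries. It was 9.45-fold higher, with an interval of 8.27 to 10.9. The epsilon chain pairs with either of the other CD3 chains in the complex, and its gene Cd3e (ENSMUSG00000032093, chromosome 9, 44998740 to 45009627) had 1084 counts in the shDmrt1 library, against 132 in the shControl library. Cd3e was 8.07-fold higher, with an interval of 6.75 to 9.78.

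The zeta chain was the CD3-associated chain with the smallest ratio. Cd247 (ENSMUSG00000005763, chromosome 1, 165788681 to 165877277) had 844 counts in the shDmrt1 library, against 154 in the shControl library, and was 5.39-fold higher with an interval of 4.55 to 6.46. Its intervals did not meet those of Cd3d, Cd3g or Cd3e. Zeta is also used by activating receptors of NK cells, which lack CD3 on their surface. In GENCODE M21, 12124 bases of Cd247 are overlapped on the opposite strand by Pou2f1, which had 833 and 651 counts in the shDmrt1 and shControl libraries and a log2 ratio of 0.34. The kit marks strand, but the counted strand is not stated, so reads of such partners could be shared.

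The coreceptor genes held both ends of the range of ratios. Cd8a (ENSMUSG00000053977, chromosome 6, 71373427 to 71379173), the alpha chain, had 2733 counts in the shDmrt1 library, against 194 in the shControl library. It was 13.9-fold higher, with an interval of 12.0 to 16.2. Cd8b1 (ENSMUSG00000053044, chromosome 6, 71322788 to 71337494), the beta chain, had 408 and 41 counts in the shDmrt1 and shControl libraries and was 9.71-fold higher, with a wider interval of 7.11 to 13.9. Cd4 (ENSMUSG00000023274, chromosome 6, 124864692 to 124888221) had 1620 counts in the shDmrt1 library, against 398 in the shControl library, and was 4.01-fold higher, with an interval of 3.59 to 4.49. It was the sole member whose interval reached below 4-fold.

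Both kinases were higher in the shDmrt1 library, Lck by more than Zap70. Lck (ENSMUSG00000000409, chromosome 4, 129548344 to 129573641), which starts the signal at the ITAMs, had 2743 counts in the shDmrt1 library, against 303 in the shControl library, and was 8.91-fold higher, with an interval of 7.92 to 10.1. Zap70 (ENSMUSG00000026117, chromosome 1, 36761798 to 36782818) had 868 counts in the shDmrt1 library, against 159 in the shControl library, and was 5.37-fold higher, with an interval of 4.54 to 6.42. The ratio of Zap70 was close to that of Cd247, and below those of Cd3d, Cd3g and Cd3e, whose chains carry ITAMs too. The ratio of Cd247 to Zap70 counts in the shDmrt1 library was 1.00 times that in the shControl library, with an interval of 0.783 to 1.29.

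Foxp3 (ENSMUSG00000039521, chromosome X, 7573644 to 7595245) was the scarcest member per length. It had 277 counts in the shDmrt1 library, against 37 in the shControl library, or 13.1 and 1.78 scaled CPM, and was 7.30-fold higher with an interval of 5.23 to 10.7. Foxp3 is overlapped by Flicr on the same strand over 7384 bases and by Gm36995 on the opposite strand over 21602 bases. Neither has counts of its own here, so any reads shared with Foxp3 could not be told apart. On the opposite strand Foxp3 is also overlapped by Ccdc22 over 1437 bases and by Ppp1r3f over 640 bases. Ccdc22 had 722 and 289 counts in the shDmrt1 and shControl libraries, with a log2 ratio of 1.30, and Ppp1r3f had 122 and 69 counts, with a log2 ratio of 0.80.

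**Figure D2:**
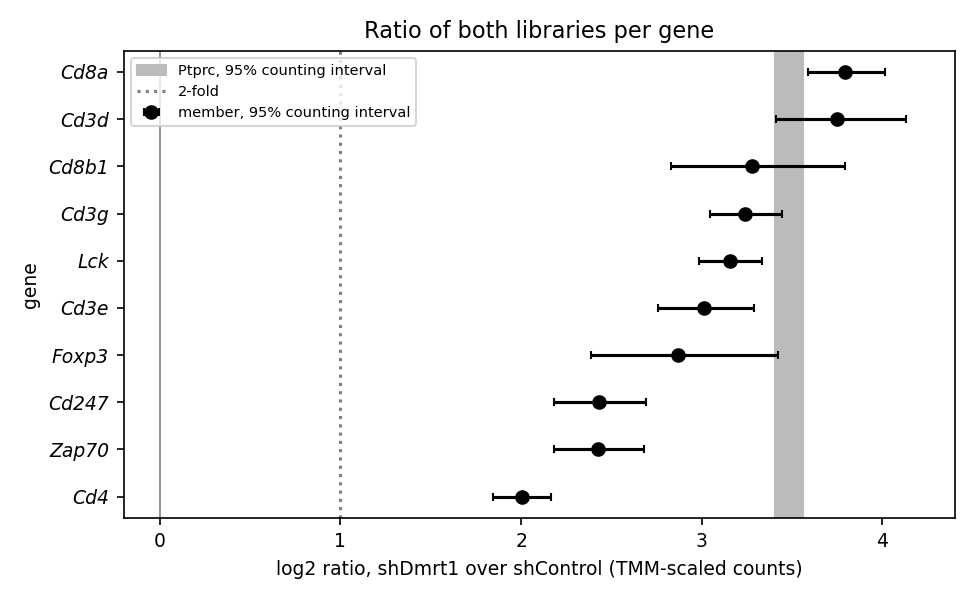
Log2 ratio of shDmrt1 over shControl scaled counts for each gene, with its 95% counting interval, beside the interval of the pan-leukocyte gene Ptprc (grey band) and the 2-fold line (dotted). The ratios run between 2.00 for Cd4 and 3.79 for Cd8a, and those of Zap70, Cd247 and Cd4 lie apart to the left of most others.

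Since each ratio depends on how the libraries are scaled to each other, the members were also set against each other within each library, which needs no scaling. For each pair of members the ratio of their counts in the shDmrt1 library was divided by the same ratio in the shControl library, with the exact conditional 95% interval of the odds ratio. These intervals cover counting error only and were not adjusted for the number of pairs. Of 45 pairs, the interval excluded 1 for 29 and held 1 for 16. Ordered by log2 ratio as Cd8a, Cd3d, Cd8b1, Cd3g, Lck, Cd3e, Foxp3, Cd247, Zap70 and Cd4, only 1 of the 9 pairs of neighbours differed beyond counting error, namely Zap70 and Cd4. The ends of this order were apart, with Cd8a and Cd3d each above Cd3g, Lck, Cd3e, Foxp3, Cd247, Zap70 and Cd4.

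The pair that differed most was Cd8a and Cd4. There were 169 Cd8a counts per 100 Cd4 counts in the shDmrt1 library, against 48.7 in the shControl library, a 3.46-fold difference with an interval of 2.87 to 4.18. By the deposited FPKM values, which are per length, Cd8a was 1.89 times Cd4 in the shDmrt1 library and 0.572 times Cd4 in the shControl library. Cd8a and Cd8b1 kept closer together, with 670 and 473 Cd8a counts per 100 Cd8b1 counts in the shDmrt1 and shControl libraries, and the interval of this difference, 0.969 to 2.03, held 1. In mice Cd8a is also made without Cd8b1 by some dendritic cells, and Cd4 by some dendritic cells and other myeloid cells. The 10 dendritic cell markers analysed summed to 189 CPM in the shDmrt1 and 102 CPM in the shControl library, with none at 0 in either, and their part in the coreceptor counts was not tested.

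Relative to Cd4, Foxp3 was also higher, with 17.1 counts per 100 Cd4 counts in the shDmrt1 library and 9.30 in the shControl library, a 1.84-fold difference with an interval of 1.28 to 2.71. Relative to Cd3e it was not distinguishable, with 25.6 counts per 100 Cd3e counts in the shDmrt1 and 28.0 in the shControl library and an interval of 0.613 to 1.38. Lck stood at 316 counts per 100 Zap70 counts in the shDmrt1 library, against 191 in the shControl library, a 1.66-fold difference with an interval of 1.34 to 2.05.

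Set against Cd3e, a chain of every T cell receptor complex, 2 of the other 9 members were relatively higher, 3 lower, and 4 had intervals that held 1. The higher ones were Cd8a, at 1.72, and Cd3d, at 1.67. The lower ones were Cd247, at 0.667, Zap70, at 0.665, and Cd4, at 0.496. The 4 that held 1 were Cd3g, Cd8b1, Lck and Foxp3. Natural killer cells express Cd247, Zap70 and Lck without surface CD3. The 5 NK cell markers analysed summed to 10.1 CPM in the shDmrt1 and 4.31 CPM in the shControl library, with Klra4 at 0 in the shControl library, and their part in these ratios was not tested.

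**Figure D3:**
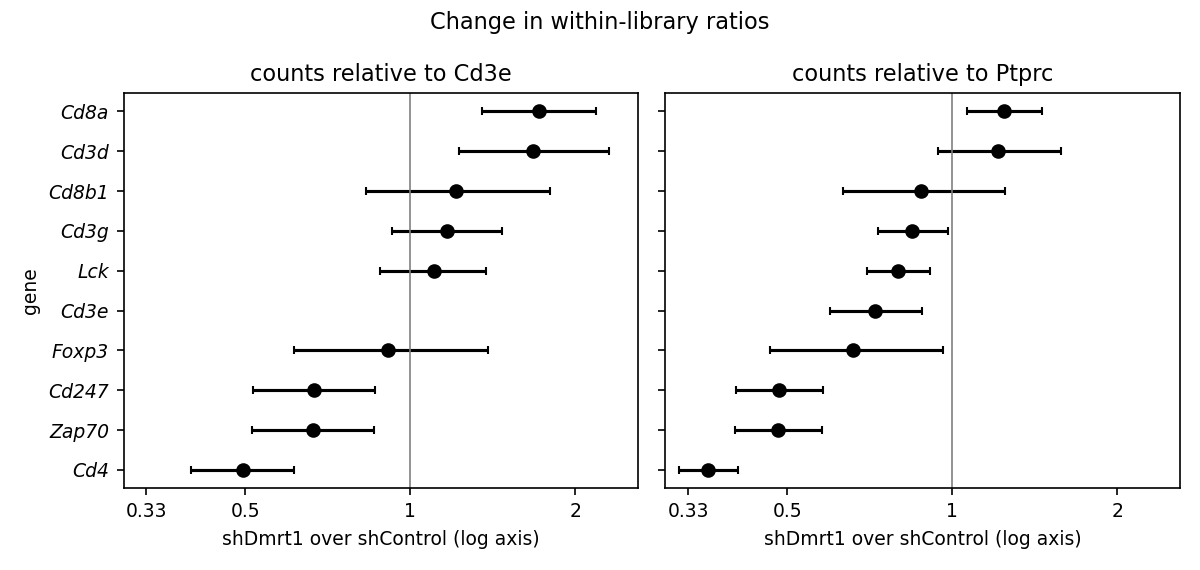
Counts of each gene relative to Cd3e (left) and to Ptprc (right) in the shDmrt1 library over the same in the shControl library, on a log axis, with exact 95% counting intervals. Points left of 1 are lower relative to the named gene in the shDmrt1 library, as for Cd4, at 0.496 of Cd3e and 0.359 of Ptprc.

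Of 8 pan-leukocyte genes, 7 were called higher in the shDmrt1 library, against 17.4% of loci, at a median log2 ratio of 2.95. Cytip, with 1510 counts in the shDmrt1 and 1301 in the shControl library, was not called higher. Ptprc, which encodes the pan-leukocyte phosphatase CD45 that keeps Lck active, had 16266 counts in the shDmrt1 library, against 1434 in the shControl library, and was 11.2-fold higher. Relative to Ptprc, 7 of the 10 members were lower in the shDmrt1 library, 1 was higher and 2 had intervals that held 1. Cd8a was the higher one, with 16.8 and 13.5 counts per 100 Ptprc counts in the shDmrt1 and shControl libraries, a ratio of 1.24 with an interval of 1.06 to 1.46. Cd4 had 9.96 counts per 100 Ptprc counts in the shDmrt1 library, against 27.8 in the shControl library. Cd3e had 6.66 and 9.21, a ratio of 0.724 with an interval of 0.599 to 0.881. Cd3d and Cd8b1 were the members whose intervals held 1. Most members thus had fewer counts per Ptprc count in the shDmrt1 library, although each was higher in scaled CPM. Macrophages and neutrophils express Ptprc too. Of the 11 macrophage markers analysed 8 were called higher and 2 lower, with log2 ratios between -4.43 for Cd163 and 5.02 for Cd68. They summed to 4284 CPM in the shDmrt1 and 1177 CPM in the shControl library, with none at 0 in either library. All 10 neutrophil markers were called higher, and they summed to 934 CPM in the shDmrt1 and 10.8 CPM in the shControl library, in which Elane, Retnlg and S100a8 were at 0. The part of either cell type in the Ptprc counts was not tested.

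Per length, in deposited FPKM, Cd3g was the most abundant member in both libraries, at 121 in the shDmrt1 and 13.4 in the shControl library. Lck came next, at 71.2 and 7.36 FPKM, followed by Cd3e, at 51.0 and 6.28. Cd8b1, at 15.8 and 1.62, and Foxp3, at 3.44 and 0.459, were the lowest of the members in both. The middle of the order differed. In the shDmrt1 library it ran Cd8a (43.8), Cd3d (33.4), Cd247 (25.7), Zap70 (24.5) and Cd4 (23.2 FPKM). In the shControl library it ran Cd4 (5.66), Cd247 (4.75), Zap70 (4.18), Cd8a (3.24) and Cd3d (2.42 FPKM). No spread between animals is known for either library, so steps within this order could not be compared with such a spread. Cd3g stood at 2.37 times Cd3e in the shDmrt1 and 2.13 times in the shControl library, and Cd3d at 0.656 and 0.385 times Cd3e.

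**Figure D4:**
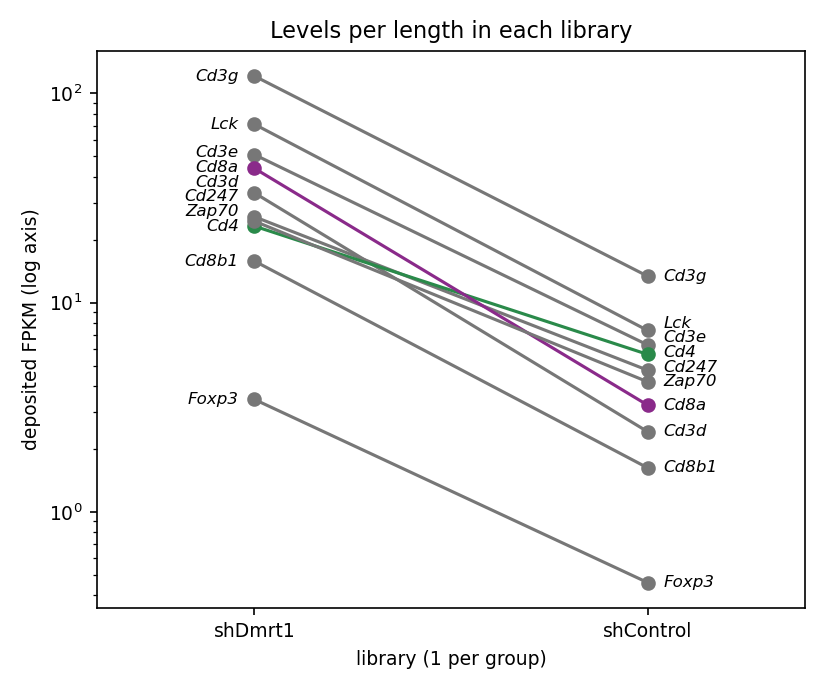
Deposited FPKM on a log axis for each gene in the shDmrt1 library (left) and the shControl library (right), joined by lines, with Cd8a in purple and Cd4 in green. Cd8a and Cd4 cross, Cd8a standing at 43.8 and Cd4 at 23.2 FPKM in the shDmrt1 library, against 3.24 and 5.66 FPKM in the shControl library.

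For each member the nearest protein-coding gene of the table on either side, not overlapping it, was taken as its neighbour in position. Some lay far off, such as Usp27x, 197813 bases from Foxp3 and called lower, and Dusp27, 220870 bases from Cd247 and under 10 counts. Of 14 flanking protein-coding genes that are not members, 3 had fewer than 10 counts over both libraries. Of the other 11, 3 were called higher, 2 lower and 6 neither, against 17.4% higher and 20.8% lower among all loci, and with so few genes nothing is read from these shares. Mpzl2 and Ube4a, on either side of the CD3 genes, had log2 ratios of -0.98 and -0.57. Rmnd5a, beside Cd8a, had a log2 ratio of 0.51, and Smyd1, beside Cd8b1, one of -2.57 with an interval of -3.83 to -1.60. The neighbours of Cd4 were both called higher. Lag3, a receptor related to CD4 that also binds MHC class II, had 1332 counts in the shDmrt1 library, against 121 in the shControl library. Gpr162, 708 bases from Cd4, had 1837 and 81 counts and a log2 ratio of 4.47, above that of Cd4. The other flanking gene called higher was Creg1, beside Cd247, at 1.99.

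The ligands of the receptor and its coreceptors lie on other cells. All 14 genes of MHC and peptide loading were called higher, with a median log2 ratio of 2.98. The smallest ratios were 1.19 for the class I heavy chain H2-D1 and 1.81 for the loading factor Tapbp. The class II genes H2-Aa, at 8.28, and H2-Eb1, at 7.74, were the highest. Of 10 costimulatory ligands 7 were called higher, none lower and 3 neither, at a median log2 ratio of 2.66, or 2.25 with Cd70, at 0 shControl counts, set at its bound against 3 counts in that library. Cd274, the ligand of the inhibitory receptor PD-1, had 13132 counts in the shDmrt1 library, against 250 in the shControl library, and Pvr had 449 and 904.

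Across 7 lists of genes that act in T cells and are not members, 115 genes had at least 10 counts over both libraries. Of these 86 were called higher, 3 lower and 26 neither, at a median log2 ratio of 2.40, beside backgrounds of 17.4% higher and 20.8% lower. Many genes of these 7 lists, whether higher or lower, are also expressed by other cells, and the part of those cells was not tested. Among 24 genes of proteins that act with or after Zap70, 16 were called higher and 2 lower, and the other 6 were neither; the median was 2.28. Malt1, a scaffold protease on the way to NF-kB, had 8778 counts in the shDmrt1 library, against 458 in the shControl library, and was 18.9-fold higher. Rasgrp1, which activates Ras in lymphocytes, had 2611 and 198 counts and was 13.0-fold higher. The 2 lower ones, the adaptor gene Nck2 and the Ras activator gene Sos1, had log2 ratios of -1.48 and -1.27. The adaptors nearest to the receptor, chosen after their values were seen, were higher, with 1365 and 132 counts of Lat and 3977 and 417 counts of Lcp2 in the shDmrt1 and shControl libraries. Fyn, a relative of Lck, was chosen in the same way and had 1759 counts in the shDmrt1 library, against 3550 in the shControl library.

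Of 18 inhibitors of receptor signalling, 13 were called higher, none lower and 5 neither, at a median log2 ratio of 1.91. The phosphatase gene Ptpn6 had a log2 ratio of 3.73 and the surface gene Cd5 one of 3.19, whereas Csk, the kinase that inhibits Lck, had 0.37, from 2840 counts in the shDmrt1 and 2160 in the shControl library. Of 18 costimulatory and inhibitory receptors, 17 were called higher and 1 neither, with a median of 2.76. Ctla4 was highest, at 853 counts in the shDmrt1 library, against 59 in the shControl library, and Btla and Pdcd1 were lowest, at log2 ratios of 1.27 and 1.59. Among 13 genes that receptor signalling induces, 8 were called higher, 1 lower and 4 neither, at a median log2 ratio of 2.08. Tnf, at 5.53, and Ifng, at 4.63 with 338 and 13 counts in the shDmrt1 and shControl libraries, were highest, while Rcan1 and Nr4a1, at -1.23 and -1.07, were lowest. Il2, with 2 counts in the shDmrt1 and 0 in the shControl library, was under the limit of 10 counts.

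Of 17 T lineage genes, 12 were called higher, none lower and 5 neither, at a median log2 ratio of 2.27. The interleukin-7 receptor gene Il7r was highest, at 1350 counts in the shDmrt1 library, against 86 in the shControl library. Tox had 178 and 305 counts and a log2 ratio of -0.80, and Lef1 had 171 and 103. The transcription factors of the coreceptor lineages, chosen after their values were seen, were Runx3, which acts in CD8 T cells, with 781 counts in the shDmrt1 and 145 in the shControl library, and Zbtb7b, which acts in CD4 T cells, with 1627 and 1046. Runx3 was called higher and Zbtb7b was not, although neither is restricted to T cells. Gata3, a helper T cell factor picked in the same way, was called higher, with 134 shDmrt1 and 27 shControl counts. Of 13 helper and regulatory T cell genes, 9 were called higher, none lower and 4 neither, at a median log2 ratio of 2.00. Lrrc32, a surface protein of activated regulatory T cells and other cells, had 303 and 32 counts in the shDmrt1 and shControl libraries. Tbx21, the factor of type 1 helper and cytotoxic cells, had 304 and 37. The regulatory T cell genes Il2ra, with 288 and 68 counts, and Ikzf2, with 518 and 180, were chosen after their values were seen.

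Of 12 cytotoxic effector genes, 11 were called higher, none lower and 1 neither, at a median log2 ratio of 3.23. Cst7, an inhibitor of granule cathepsins, had 2920 and 25 counts in the shDmrt1 and shControl libraries. Ccl5 had 20751 counts in the shDmrt1 library, against 302 in the shControl library. Both genes are also expressed by myeloid cells. Granzyme and perforin genes were chosen after their values were seen. In the shDmrt1 library there were 184 counts of Gzma, 1176 of Gzmb, 415 of Gzmk and 242 of Prf1. The shControl library had 19, 25, 27 and 25 counts of these genes.

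Markers of other immune cells were examined in the same way. Of 4 NK cell markers with at least 10 counts, 2 were called higher, 1 lower and 1 neither. Eomes had 129 and 21 counts in the shDmrt1 and shControl libraries, and Klra8 had 1 and 23. Of 10 dendritic cell markers, 4 were called higher, 1 lower and 5 neither, with Itgax at a log2 ratio of 2.32 and Cd209a at -2.42. Of 10 B cell markers, 2 were called higher, none lower and 8 neither, at a median log2 ratio of 0.88. Cd22 had a log2 ratio of 2.57 and Ebf1 one of -0.03. The 10 neutrophil markers, all higher, had a median log2 ratio of 8.79, or 7.09 with the 3 at 0 shControl counts set at their bound, and this lies above the median of the members. The granule protein gene S100a9 had 7560 counts in the shDmrt1 library, against 1 in the shControl library. Of 3 gamma-delta T cell genes analysed, 1 was called higher and 2 neither. The higher one, the interleukin-23 receptor gene Il23r, had 303 counts in the shDmrt1 library, against 4 in the shControl library. Genes of thymocytes, the immature cells in which antigen receptors are assembled, were at or near 0. Rag2 had 0 counts in both libraries, and 0 counts allow up to 0.122 CPM in the shDmrt1 and 0.168 CPM in the shControl library. Dntt had 3 and 1. The constant and variable segments of the receptor chains themselves were not analysed here.

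**Figure D5:**
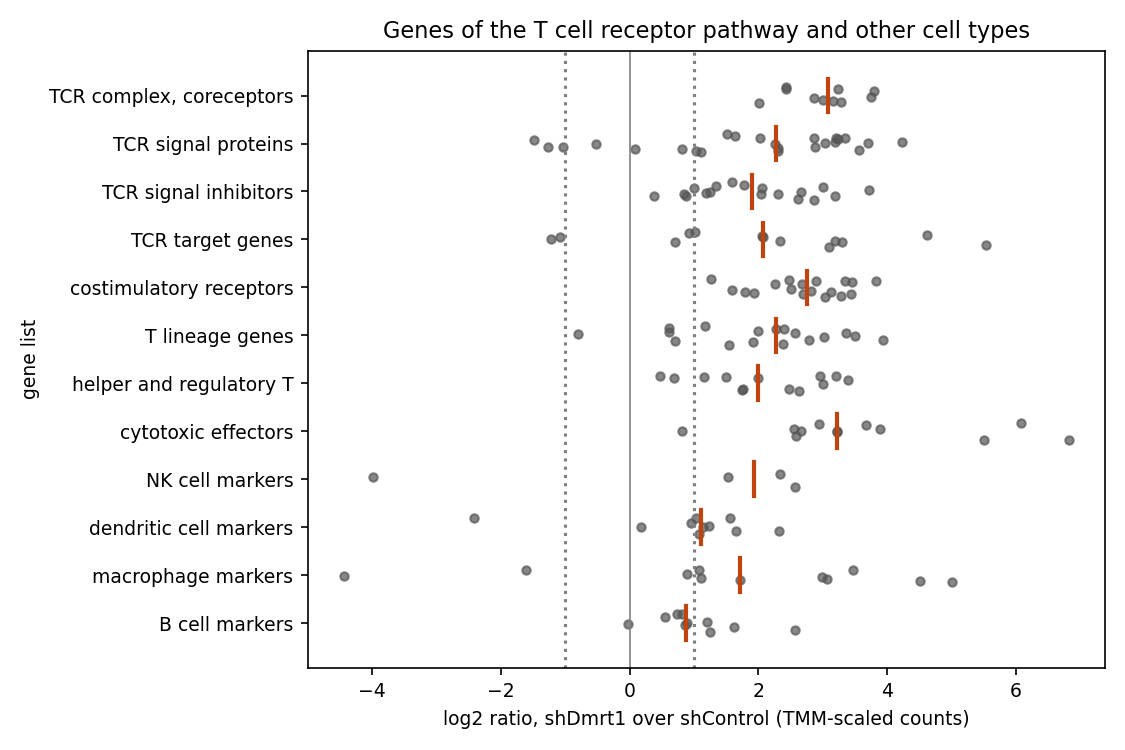
Log2 ratio of shDmrt1 over shControl for each gene with at least 10 counts, by gene list, with the list median as a bar and dotted lines at 2-fold. The members have a median of 3.08 and the cytotoxic genes one of 3.23. Medians are 1.71 for macrophage, 1.11 for dendritic and 0.88 for B cell markers. Not drawn are pan-leukocyte genes, with a median of 2.95, MHC and peptide loading genes, with 2.98, and neutrophil markers, with 8.79.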

How the data were processed

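RNA labelled as testis was measured in 2 libraries, 1 per group, mapped by their titles. Whether the whole organ was used is not stated by the titles. The deposited table holds read counts and FPKM per locus, which the authors made per the file headers. It also holds the authors' EBSeq comparison (FDR 0.01, fold 2). Listed without role or order in the submitters' processing notes are build mm10, STAR 2.5.3a, Trimmomatic 0.36, Subread 1.5.1, featureCounts, DESeq and edgeR 3.12.1. Annotation and counted strand are not given in the sources. From the counts, TMM scaling (edgeR 4.0.16, R 4.3.3), log2 ratios and counting intervals were computed (Python 3.11.15, scipy 1.17.1, numpy 2.4.6, pandas 2.3.3). No count test could be run with 1 library per group. The procedure, with library totals in place of TMM, was tested on simulated counts with counting error only, so spread between animals was not covered. With 1 library per group, intervals cover counting error only. Reads carry no molecular identifiers here, so copies of the same molecule are not told apart and intervals may be too narrow.

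Loci entered with at least 10 counts summed over both libraries. Alternatives were a prior count of 5, size factors of DESeq2 1.42.0, library totals, FPKM with a pseudocount of 0.1, other fold rules and other filters. Members and lists were chosen with earlier results of these data known. The comparison of all 45 pairs of members was added after their values were seen. Genes named outside the members are the 2 highest and 2 lowest of each list by the interval bound nearest 0, unless said otherwise; some genes that the lists hold are not reported here by name. GENCODE M21 gave the gene positions (GRCm38, which is mm10). Promoter windows are from RefSeq on GRCm38.p6.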

Additional observations from a re-analysis of the deposited data

How the results depend on the processing

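No paired analysis was possible because there is a lone library in either group, so leaving out a library could not be tried. The count of 10 members called higher was the same with library totals, DESeq2 size factors, a point estimate, a 1.5-fold rule and both other filters, and was 9 with a 4-fold rule, without Cd4. No member's log2 ratio changed sign under any alternative. Library totals moved 8 of 10 beyond their counting interval, the lowest being Cd4 at 1.56 and the highest Cd8a at 3.35. Size factors, a prior count of 5 and FPKM moved none. The length implied by counts, FPKM and library totals differed between libraries, for Cd3d 1169 bases in shDmrt1 and 1622 in shControl. How the FPKM were scaled is thus not known, and they are no separate check of the scaling. The count of T cell list genes called lower, 3, was 5 with library totals, 5 with a point estimate, 5 with a 1.5-fold rule and 0 with a 4-fold rule. With a 4-fold rule 1312 loci were called higher and 1804 lower, against 2828 and 3391. With library totals 2036 were higher and 4500 lower. The ratio of Cd8a to Cd4 was 3.25 by FPKM, within its counting interval. At 41 and 37 shControl counts, depth limits Cd8b1 and Foxp3 most.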
